A study of Mus musculus with 12 samples.

Results

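The genes described here encode insulin-like growth factor 1 (Igf1), both receptors of the insulin-like growth factors (Igf1r and Igf2r) and 6 IGF-binding proteins (Igfbp2 to Igfbp7). They are 9 of the 40384 genes of the deposited table, taken by their symbols in GENCODE M21. Polyadenylated RNA of mouse cells was sequenced in 12 libraries, 3 in each of 4 groups. MEF libraries were made from fibroblasts of male mid-gestation embryos, homozygous for 4F2A, a set of transgenes that express Oct4, Sox2, Klf4 and Myc, the reprogramming factors, under doxycycline. The D4 libraries came from 4F2A cells at day 4 of reprogramming with the label OE-NC, and those labelled D4_DUX from 4F2A cells at day 4 with the label OE-DUX. One treatment text, 48 h of Dux overexpression, stands with both. The iPSC libraries came from induced pluripotent stem cells. The text on embryos and culture, with LIF at 1000 U/mL and doxycycline at 2 μg/mL, is the same for all 12 libraries. Sources used here do not give the strain, the use of feeder cells, the number of iPSC lines or whether libraries of a group are separate cultures.

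Insulin-like growth factors are small secreted hormones that act through the tyrosine kinase encoded by Igf1r, which signals through adaptor proteins to the PI3K and AKT kinases. The product of Igf2r has no kinase. It binds IGF2 for degradation and carries enzymes tagged with mannose 6-phosphate to lysosomes. Binding proteins hold the growth factors in the extracellular fluid, extend their life and limit or release them to the receptor, and fibroblasts are a known source of several of them.

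Values are counted fragments scaled by exon length and by the library's total (FPKM), so levels of different genes can be set side by side. Group values are mean ± SD of n = 3 libraries, and log2 fold changes are on the log2(FPKM + 1) scale with the SE of a limma fit over all 12 libraries. Adjusted p-values are those of limma over 17114 genes, and a gene was called higher or lower at an adjusted p under 0.05. Depth was 22540000 to 28120000 counted fragments per library. Igf1 reached 1 FPKM in 9 libraries and each of the other 8 genes in all 12, and all 9 were tested. The lowest value among them, Igf1 in iPSC replicate 3, rested on about 96 fragments.

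The labels were checked on marker genes. All 12 pluripotency markers, led by Dppa5a and Tdgf1, had a mean above 1 FPKM in iPSC and below it in every other group (summed level 1432 to 1598 FPKM against at most 1.03). Fibroblast markers, 14 genes led by Col1a1 and Col1a2, summed to 7306 to 7515 FPKM in MEF, 4298 to 4424 in D4, 3566 to 3646 in the libraries labelled D4_DUX and 1290 to 1597 in iPSC. Macrophage markers, 16 genes led by Lyz2 and Marco, summed to 1756 to 1796 FPKM in MEF, 203 to 243 in D4, 52.0 to 53.9 in the libraries labelled D4_DUX and 184 to 226 in iPSC. Smooth muscle markers (5 genes) ran from 897 to 1012 FPKM in MEF to 90.7 to 132 in iPSC. Sums of 3 other lists were higher with the D4_DUX label than in D4, without overlap, and their part in the results was not tested. Epithelial markers (8 genes) summed to 5.31 to 5.61 FPKM in MEF, 10.6 to 11.8 in D4, 27.9 to 29.7 in the libraries labelled D4_DUX and 172 to 188 in iPSC, with 5 of 8 called higher in the libraries labelled D4_DUX. The sum of endothelial markers (8 genes, 2 tested) was at most 0.880 FPKM in MEF and 14.1 to 14.6 in D4. It was 20.3 to 22.7 in the libraries labelled D4_DUX and 28.3 to 29.0 in iPSC. These sums did not follow the same genes. In both day 4 groups the sum was mostly Tek, and 7 of the 8 markers had a mean below 1 FPKM. In iPSC mean Tek was at 2.02 FPKM and mean Pecam1 at 24.5. For iPSC against D4, 1 of the 2 tested was called higher and 1 lower. Neural markers (8 genes, 4 tested) were at 54.6 to 59.7 FPKM in D4 and 71.4 to 76.6 in the libraries labelled D4_DUX. Of the 4 tested, 2 were called higher and 1 lower in that comparison. Mean Tubb3 was at 19.4 FPKM in D4 and 27.4 in the libraries labelled D4_DUX, and mean Ncam1 at 20.3 and 17.7. Duxf3, the annotated Dux gene, was listed at 0 in all 3 libraries labelled D4_DUX and at no more than 0.0247 FPKM in any library, below the 0.0396 to 0.0494 FPKM of a floor of 3 fragments. The table therefore shows no overexpression at this gene. Sources used here do not say whether an introduced Dux sequence would be counted there.

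Igf1, the growth factor made by mesenchymal cells and macrophages, was highest in MEF, lower in both day 4 groups and lowest in iPSC. Its FPKM was 7.29, 6.61 and 7.17 in MEF and 4.08, 4.50 and 4.29 in D4. The libraries labelled D4_DUX had 1.51 in each of the 3, and iPSC had 0.458, 0.506 and 0.369. No group overlapped another in these values, and the MEF mean was 15.8 times the iPSC mean. For the libraries labelled D4_DUX against D4, Igf1 (ENSMUSG00000020053, chromosome 10, 87858265 to 87937042 in GRCm38) fell by 1.07 on the log2 scale (SE 0.05, adjusted p = 2.36e-07), and the D4 mean was 2.84 times theirs. It was also lower in D4 than in MEF (-0.60, SE 0.05, adjusted p = 1.56e-06). All 16 macrophage markers were called lower beside it in each of these comparisons, with a median log2 fold change of -1.37 and -2.10, and the part of these cells in the Igf1 values was not tested. In iPSC against D4, where Igf1 was 9.66 times lower, 10 of the 16 markers were lower and 4 higher, with a median of -0.36, and the marker sums overlapped. In bulk RNA, fewer cells of a type and less RNA per cell cannot be told apart.

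**Figure D1:**
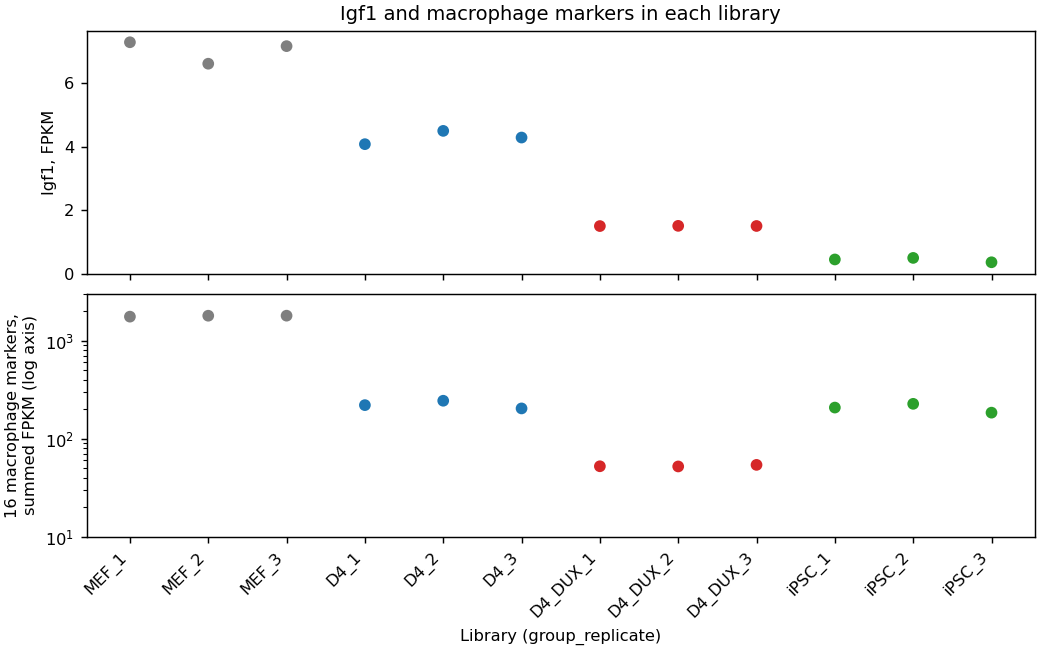
Igf1 in FPKM (upper panel) and the summed FPKM of 16 macrophage markers on a log axis (lower panel) in each of the 12 libraries, with colours for the 4 groups. Both are highest in MEF, and both are lower in the libraries labelled D4_DUX, with Igf1 at 1.51 FPKM, than in D4. In iPSC the marker sum of 184 to 226 FPKM stands above that of the libraries labelled D4_DUX, while Igf1 stands below its level there.

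The receptors changed by less than the growth factor. Igf1r (ENSMUSG00000005533, chromosome 7, 67952827 to 68233668) was at 10.7 to 11.1 FPKM in MEF, 10.7 to 11.8 in D4, 10.3 to 11.2 in the libraries labelled D4_DUX and 6.44 to 7.39 in iPSC. Its values in MEF and in both day 4 groups overlapped, and iPSC lay below all of them. It was called lower in iPSC against MEF (-0.57, SE 0.05, adjusted p = 1.06e-06), with 0.04 (SE 0.05, adjusted p = 0.58) for D4 against MEF and -0.05 (SE 0.05, adjusted p = 0.48) for the libraries labelled D4_DUX against D4. Igf2r (ENSMUSG00000023830, chromosome 17, 12682406 to 12769664) was at 84.5, 85.8 and 79.6 FPKM in MEF and 65.8, 58.3 and 70.2 in D4. It was at 68.9, 67.6 and 67.5 in the libraries labelled D4_DUX and 60.5, 62.8 and 59.7 in iPSC. MEF stood above all other libraries, and the other 3 groups were close together, with overlap between both day 4 groups and between D4 and iPSC. Igf2r fell in D4 (-0.36, SE 0.06, adjusted p = 0.000186) and was lower in iPSC (-0.44, SE 0.06, adjusted p = 1.76e-05), both against MEF.

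Per length, Igf2r transcripts outnumbered those of Igf1r in every library. The ratio of their FPKM was 7.61 ± 0.156 in MEF, 5.74 ± 0.238 in D4, 6.30 ± 0.208 in the libraries labelled D4_DUX and 8.66 ± 0.550 in iPSC. Airn, the antisense RNA that overlaps Igf2r, was at no more than 2.04 FPKM in any library. Sources used here do not say if counting was by strand, so fragments of this pair cannot be told apart for certain. For iPSC against D4 Igf2r had -0.08 (adjusted p = 0.205), and it was called lower without D4 replicate 2 (-0.15, adjusted p = 0.00646) and with median-ratio scaling (-0.24, adjusted p = 0.00324).

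**Figure D2:**
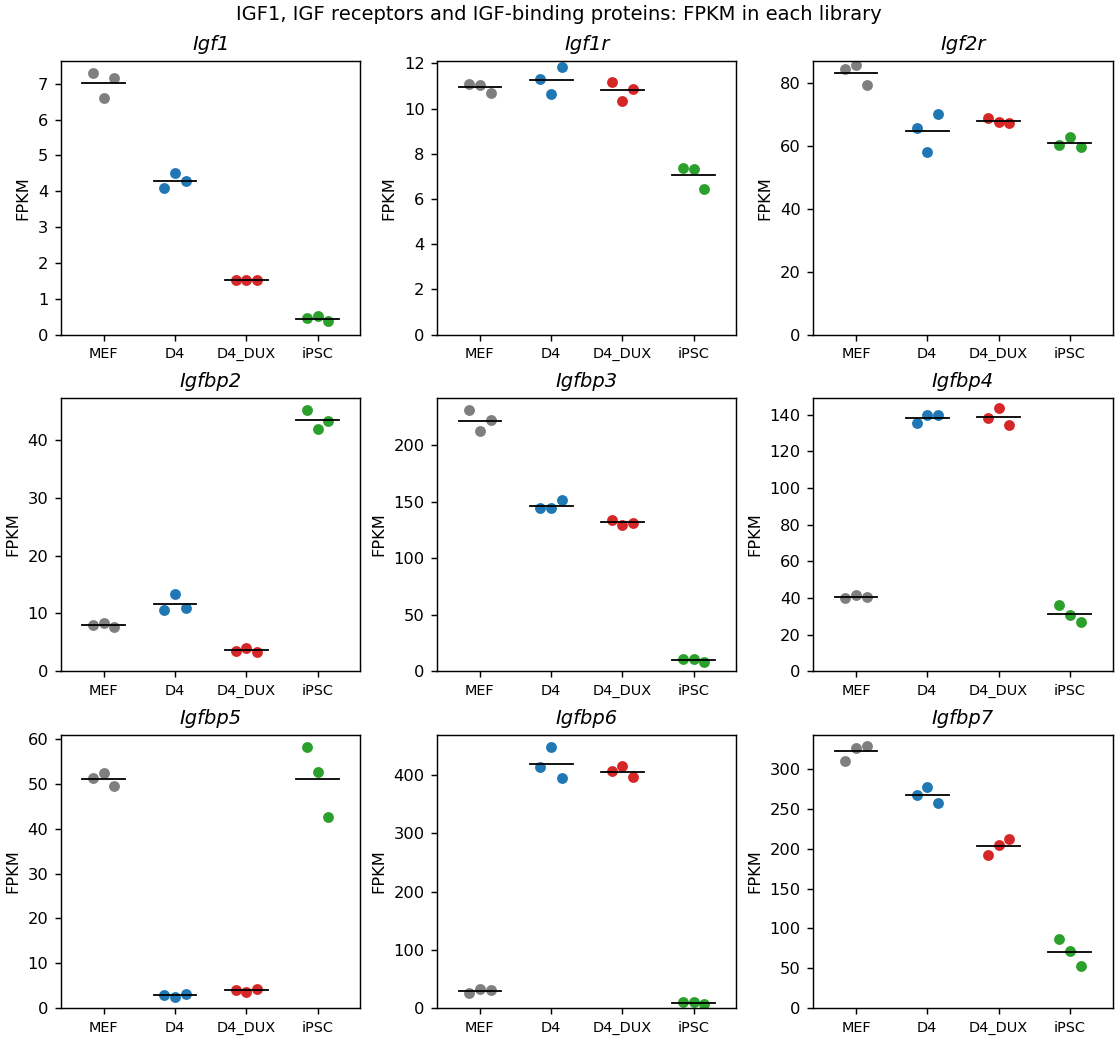
FPKM of the 9 genes in each library, 1 panel per gene, with a linear axis from 0; points are libraries and lines are group means. Igfbp4 and Igfbp6 are highest at day 4, Igfbp5 is lowest at day 4, Igfbp2 is highest in iPSC, and Igf1, Igfbp3 and Igfbp7 descend from MEF to iPSC.

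Igfbp6 and Igfbp4 rose from MEF to D4 and were higher in every D4 library than in any MEF or iPSC library. IGFBP6 is known for a preference for IGF2 over IGF1, and IGFBP4 for holding growth factors back until the protease PAPP-A cleaves it. They are shown by their promoters because they moved together, 300 bases each, from 250 before to 50 after the RefSeq start site (GRCm38.p6), both on the plus strand, at chr15:102143936-102144235 and chr11:99040994-99041293. Capitals mark matches, on either strand, to the TATA box (TATAAA), the CCAAT box, the GC box (GGGCGG), the E-box (CACGTG) or the AP-1 motif (TGAGTCA).
Igfbp6: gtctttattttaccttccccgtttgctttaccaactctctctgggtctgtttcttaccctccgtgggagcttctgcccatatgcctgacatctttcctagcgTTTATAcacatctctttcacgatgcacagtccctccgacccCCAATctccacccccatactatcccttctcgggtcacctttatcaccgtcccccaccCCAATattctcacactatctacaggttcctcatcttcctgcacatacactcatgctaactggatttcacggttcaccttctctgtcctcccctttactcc
Igfbp4: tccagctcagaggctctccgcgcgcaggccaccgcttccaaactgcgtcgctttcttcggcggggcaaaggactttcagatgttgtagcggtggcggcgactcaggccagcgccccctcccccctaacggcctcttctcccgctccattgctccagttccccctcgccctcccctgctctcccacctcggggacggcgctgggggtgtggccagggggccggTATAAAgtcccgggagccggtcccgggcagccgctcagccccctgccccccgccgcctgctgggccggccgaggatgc
TATAAA was found in both, at -28 in Igfbp4 and, on the opposite strand, at -148 in Igfbp6 (first base from the start site), and 13.6% of 32851 mouse promoters of this length hold it. CCAAT was found at -107 and -50 in Igfbp6, with 37.4% of promoters holding it. The guanine and cytosine share was 71.3% for Igfbp4 and 49.7% for Igfbp6, against a median of 52.7% over all promoters. A match is a run of letters, not a measured site. The Igfbp6 window ends before the GENCODE M21 gene starts, at 102144362, while the Igfbp4 window spans the start of its gene. Whether the Igfbp6 window is the promoter of the transcripts counted here was not tested.

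Igfbp6 (ENSMUSG00000023046, chromosome 15, 102144362 to 102149511) had the widest range of the 9 genes. It was at 26.3, 32.6 and 30.5 FPKM in MEF and at 414, 448 and 395 in D4. In the libraries labelled D4_DUX it was at 407, 415 and 397, and in iPSC at 10.001, 9.62 and 7.43. Both day 4 groups overlapped each other and stood above every MEF and iPSC library. The D4 mean was 14.1 times the MEF mean (log2 fold change 3.77, SE 0.10, adjusted p = 5.26e-11) and 46.5 times the iPSC mean. For the libraries labelled D4_DUX against D4 it had -0.04 (SE 0.10, adjusted p = 0.79).

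Igfbp4 (ENSMUSG00000017493, chromosome 11, 99041244 to 99054392) had the same shape at a smaller size. Its FPKM was 39.8, 41.4 and 40.3 in MEF, and 136, 140 and 140 in D4. The libraries labelled D4_DUX had 138, 143 and 134, and iPSC had 36.2, 30.4 and 26.8. The rise from MEF to D4 was 3.42 times (log2 fold change 1.75, SE 0.08, adjusted p = 5.11e-09). Between the libraries labelled D4_DUX and D4 the log2 fold change was 0.00 (SE 0.08, adjusted p = 1). Igfbp4 was lower in iPSC than in MEF (-0.38, SE 0.08, adjusted p = 0.000901), as was Igfbp6 (-1.63, SE 0.10, adjusted p = 1.83e-08). Over the 12 libraries Igfbp4 and Igfbp6 correlated at Pearson r = 0.99 on the log2 scale, a description that mostly follows the 4 group means.

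Igfbp5 and Igfbp2 lie next to each other on chromosome 1 and took different courses. IGFBP5 is a matrix-binding member of fibroblasts, muscle and bone, and IGFBP2 is a member known from embryonic and stem cells that also binds integrins. Igfbp2 (ENSMUSG00000039323, 72824503 to 72852474, plus strand) and Igfbp5 (ENSMUSG00000026185, 72857932 to 72874884, minus strand) point at each other, with 5457 bases between them. In D4 against MEF and in the libraries labelled D4_DUX against D4 they changed in opposite directions. Both were called higher in iPSC than in D4, and over the 12 libraries they correlated at Pearson r = 0.55 on the log2 scale. Their RefSeq promoters are shown for these partly different courses, at chr1:72824230-72824529 (plus strand) and chr1:72874816-72875115 (minus strand), with capitals as above.
Igfbp2: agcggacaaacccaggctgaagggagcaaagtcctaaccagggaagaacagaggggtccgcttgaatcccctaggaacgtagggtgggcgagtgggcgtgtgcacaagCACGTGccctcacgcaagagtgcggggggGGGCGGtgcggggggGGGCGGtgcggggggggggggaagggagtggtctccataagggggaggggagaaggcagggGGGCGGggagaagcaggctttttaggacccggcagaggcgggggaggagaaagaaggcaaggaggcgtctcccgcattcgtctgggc
Igfbp5: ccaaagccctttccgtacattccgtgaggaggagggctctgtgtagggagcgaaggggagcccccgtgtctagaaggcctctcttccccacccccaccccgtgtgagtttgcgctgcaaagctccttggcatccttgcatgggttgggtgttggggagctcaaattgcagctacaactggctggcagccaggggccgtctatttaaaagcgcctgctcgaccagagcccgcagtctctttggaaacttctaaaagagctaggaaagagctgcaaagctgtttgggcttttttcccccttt
GGGCGG was found at -113, -98 and -37 and CACGTG at -142 in Igfbp2 (35.7% and 7.15% of promoters hold these). None of the 5 motifs is in this window of Igfbp5. A further RefSeq promoter of Igfbp2, at 72825137 to 72825436, holds TGAGTCA at -39, as 5.2% of promoters do.

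Igfbp5 was low at day 4 and high at both ends. It was at 51.4, 52.6 and 49.5 FPKM in MEF and 2.90, 2.35 and 3.12 in D4. Its level was 4.02, 3.59 and 4.16 FPKM in the libraries labelled D4_DUX, and 58.3, 52.7 and 42.6 in iPSC. Every day 4 library stood below every MEF and iPSC library, and MEF and iPSC overlapped. Ifi202b, an interferon-inducible gene, was at 39.3 to 66.8 FPKM in MEF and iPSC and listed at 0 in all 6 day 4 libraries. Time and a difference in origin between cultures cannot be told apart in any comparison of day 4 with MEF or iPSC. The MEF mean was 18.4 times the D4 mean (log2 fold change -3.79 for D4 against MEF, SE 0.10, adjusted p = 8.23e-11), and iPSC against MEF had -0.01 (SE 0.10, adjusted p = 0.928). Fibroblast markers summed to 1290 to 1597 FPKM in iPSC and 4298 to 4424 in D4. The part of fibroblast-like cells in the iPSC level of Igfbp5 was not tested. Igfbp5 rose 1.41 times for the libraries labelled D4_DUX against D4 (log2 fold change 0.38, SE 0.10, adjusted p = 0.0154). That call ended without D4 replicate 2 (0.30, adjusted p = 0.0597) and without D4_DUX replicate 3 (0.35, adjusted p = 0.0548).

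Igfbp2 was lowest where Dux was the label and highest in iPSC. Its FPKM was 7.99, 8.40 and 7.60 in MEF, 10.5, 13.4 and 11.0 in D4, 3.54, 4.06 and 3.33 in the libraries labelled D4_DUX and 45.3, 41.9 and 43.3 in iPSC. No group overlapped another. Igfbp2 rose from MEF to D4 (log2 fold change 0.48, SE 0.08, adjusted p = 0.0003). For the libraries labelled D4_DUX against D4 it fell (-1.44, SE 0.08, adjusted p = 6.26e-07), with a D4 mean 3.19 times theirs. In iPSC it was 5.43 times as high as in MEF (2.31, SE 0.08, adjusted p = 1.49e-10). No other member was lowest in the libraries labelled D4_DUX.

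Igfbp3 and Igfbp7 were the leading binding protein genes of fibroblasts and descended toward iPSC. IGFBP3 is the main carrier of growth factor in serum, and IGFBP7 is a matrix protein of fibroblasts and vessels that binds the growth factors only weakly. Igfbp3 (ENSMUSG00000020427, chromosome 11, 7206086 to 7213923) was at 231, 213 and 222 FPKM in MEF and 144, 144 and 152 in D4. It was at 134, 130 and 132 in the libraries labelled D4_DUX and at 10.8, 10.6 and 8.23 in iPSC. Its groups did not overlap. Igfbp3 fell from MEF to D4 (-0.59, SE 0.08, adjusted p = 3.71e-05) and was 22.5 times lower in iPSC than in MEF (-4.37, SE 0.08, adjusted p = 5.46e-13). The libraries labelled D4_DUX against D4 gave -0.15 (SE 0.08, adjusted p = 0.147). This difference was called without iPSC replicate 3 (adjusted p = 0.00739), in a fit of only these 6 libraries (0.0111) and with voom on recovered fragments (0.0307). Its neighbour Igfbp1 was listed at 0 in all but 1 library and there at 0.0066 FPKM, under the floor of 3 fragments.

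Igfbp7 (ENSMUSG00000036256, chromosome 5, 77349240 to 77408041) was at 311, 327 and 330 FPKM in MEF and 267, 277 and 258 in D4. The libraries labelled D4_DUX had 192, 205 and 213, and iPSC had 86.4, 71.5 and 52.9. No group overlapped another, and the iPSC libraries were the most spread, at 70.3 ± 16.8. Igfbp7 fell for the libraries labelled D4_DUX against D4 (-0.39, SE 0.13, adjusted p = 0.0366). The call held with a smaller adjusted p in the fit of only these 6 libraries and with voom. It also did so without iPSC replicate 1 and without iPSC replicate 3. This call ended on leaving out any 1 of the 6 libraries compared, at adjusted p = 0.0604 (D4_DUX replicate 3) to 0.109 (D4_DUX replicate 1) with D4 replicates 1, 2 and 3 at 0.0814, 0.0965 and 0.062 and D4_DUX replicate 2 at 0.0761. D4 against MEF gave -0.27 (SE 0.13, adjusted p = 0.0964), and was called without iPSC replicate 1 (0.0251), without iPSC replicate 3 (0.00525), in the fit of D4 and MEF alone (0.00251), with voom (0.0184), with median-ratio scaling (0.0342) and with quantile normalization (0.0487). It was lower in iPSC than in MEF (-2.21, SE 0.13, adjusted p = 1.37e-08). The summed fibroblast markers descended in the same order of groups, and their part in the Igfbp3 and Igfbp7 values was not tested. Singly these 14 markers did not all descend. In D4 against MEF 4 were called higher and 9 lower. For the libraries labelled D4_DUX against D4, 1 was higher, 6 were lower and 7 were not called. In iPSC against MEF 2 were higher and 12 lower.

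Both the sum of the binding protein messages and their makeup differed between groups. Summed over Igfbp2 to Igfbp7, FPKM was 674 ± 6.47 in MEF, 986 ± 34.6 in D4, 888 ± 11.9 in the libraries labelled D4_DUX and 215 ± 32.9 in iPSC, with no overlap between groups. In each of the 4 comparisons an exact two-sided permutation test gave p = 0.1, the smallest that 3 against 3 libraries allow. Igfbp7 made up 47.8% ± 1.12 of the sum in MEF and Igfbp3 33.0% ± 1.57. In D4 Igfbp6 led with 42.5% ± 1.24, from 4.42% ± 0.447 in MEF, and Igfbp7 followed with 27.1% ± 0.271. The libraries labelled D4_DUX had 45.8% ± 0.724 for Igfbp6 and 22.9% ± 1.12 for Igfbp7. In iPSC the sum was spread over Igfbp7 (32.4% ± 2.96), Igfbp5 (23.8% ± 0.444), Igfbp2 (20.5% ± 2.96) and Igfbp4 (14.5% ± 0.400).

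**Figure D3:**
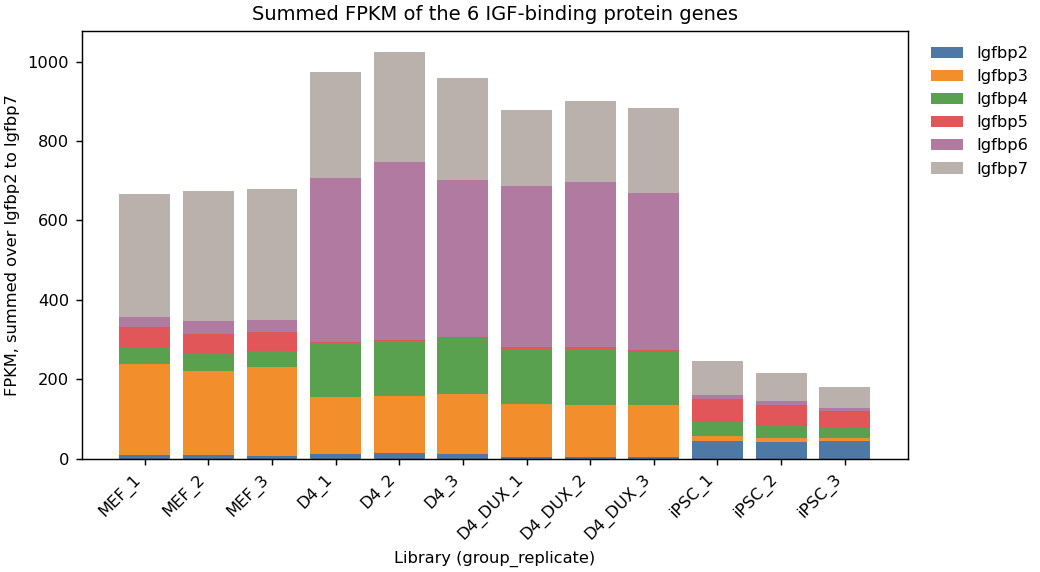
Stacked bars of the FPKM of Igfbp2 to Igfbp7 in each library, with 1 colour per gene, on a linear axis from 0. The Igfbp6 segment grows from MEF (4.42% of the sum) to D4 (42.5%), and iPSC, with the lowest bars (181 to 247 FPKM), is the group where Igfbp2 takes a visible share (20.5%).

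Within a group the order of levels was mostly clear. In MEF it ran Igfbp7, Igfbp3, Igf2r, Igfbp5, Igfbp4, Igfbp6, Igf1r, Igfbp2 and Igf1, and no neighbours in that order overlapped. In D4 it ran Igfbp6, Igfbp7, Igfbp3, Igfbp4, Igf2r, Igfbp2, Igf1r, Igf1 and Igfbp5, with overlap only between Igfbp2 and Igf1r. In the libraries labelled D4_DUX, Igfbp4 lay just above Igfbp3, with the lowest Igfbp4 at 134.2 FPKM and the highest Igfbp3 at 134.0. Igfbp5 and Igfbp2 overlapped there. In iPSC Igfbp7 overlapped Igf2r, Igfbp5 overlapped Igfbp2, and Igfbp3 overlapped Igfbp6. One iPSC library, replicate 3, was the lowest of its group for 8 of the 9 genes. It also had the lowest sum of fibroblast markers, 1290 FPKM against 1516 and 1597, and the highest of pluripotency markers, 1598 against 1432 and 1466.

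The question of Dux overexpression at day 4 is that of the libraries labelled D4_DUX against D4. Of the 9 genes, 4 were called, against 35.4% of all genes tested. Igfbp5 was called higher (1 of 9, against 20.1% of all genes tested) and Igf1, Igfbp2 and Igfbp7 lower (3 of 9, against 15.4%). The groups did not overlap for 5 of 9 genes, against 50.5% of all. The median log2 fold change was -0.05 over the 9 and 0.02 over all genes. For D4 against MEF, fibroblasts against day 4 of reprogramming, 7 of 9 were called, against 61.8% of all. Of these, 3 were higher (Igfbp2, Igfbp4 and Igfbp6, against 34.2%) and 4 lower (Igf1, Igf2r, Igfbp3 and Igfbp5, against 27.6%), with medians of -0.27 and 0.03. The groups did not overlap for 8 of 9 genes, against 66.5%. Igfbp4 and Igfbp6 lay in all D4 libraries above every MEF and iPSC library, and Igfbp5 below, patterns that 18.9% and 17.3% of all genes tested show.

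In iPSC against MEF, fibroblasts against the end of reprogramming, 8 of 9 genes were called, against 82.2% of all. Of these, 1 was higher (Igfbp2, against 51% of all genes) and 7 lower (against 31.2%), with Igfbp5 not called. In iPSC against D4, 8 of 9 were called, against 82.4%. Of these, 2 were higher (Igfbp2 and Igfbp5, against 48.5%) and 6 lower (against 33.9%), with Igf2r not called. For both, the groups did not overlap for 8 of 9 genes, against 82.4%. Medians over the 9 genes were -0.57 and -1.87, and over all genes 0.21 and 0.16. The all-gene values depend on scaling: with quantile normalization both medians were -0.07, and 6609 genes were higher and 7561 lower in iPSC than in MEF in place of 8733 and 5335. Against D4 these were 6712 and 7664 in place of 8293 and 5802. Comparisons that share a group share its libraries.

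**Figure D4:**
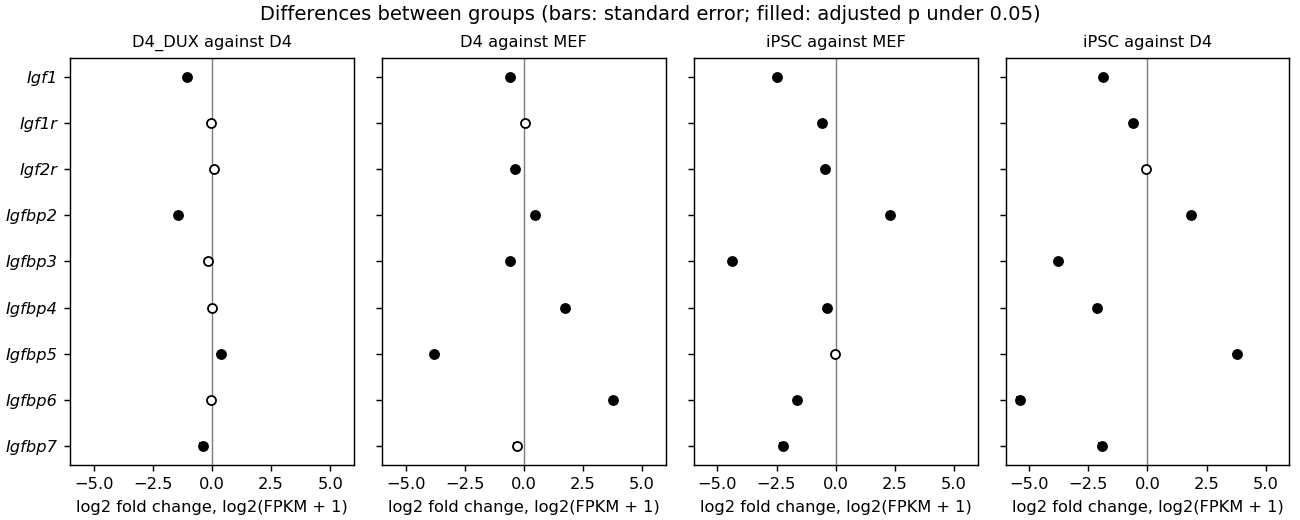
Log2 fold change on log2(FPKM + 1) with its standard error for the 9 genes in each of the 4 comparisons, filled where the adjusted p was under 0.05. Most bars are shorter than the symbols, and Igfbp5 and Igfbp6 lie farthest from 0 in opposite directions in D4 against MEF (-3.79 and 3.77).

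Other genes of the pathway were taken from a list of 54, of which 47 were tested. In the libraries labelled D4_DUX against D4, 15 of the 47 were higher and 10 lower (31.9% and 21.3%, against 20.1% and 15.4% of all genes tested), with a median log2 fold change of 0.02. Igf2, the imprinted fetal growth factor, fell from 112 ± 2.47 to 56.0 ± 2.27 FPKM (-0.99, adjusted p = 2.34e-07), beside the lower Igf1. Pappa, the protease that cleaves IGFBP4, fell from 11.4 ± 1.42 to 6.69 ± 0.395 FPKM (-0.68, adjusted p = 7.69e-05), and Stc1, which encodes a stanniocalcin that inhibits this protease, from 14.1 ± 1.48 to 7.13 ± 0.855 (-0.89, adjusted p = 2.89e-05). All 4 genes of mannose 6-phosphate sorting, the pathway whose cargo the Igf2r product carries, were called higher, with a median of 0.29, where 20.1% of all genes were. Among them were Gnptg and Nagpa, subunit and enzyme of the tagging step, with 0.40 each (adjusted p = 0.00109 and 0.000354). Of 8 adaptors and inhibitors of receptor signalling, 1 was higher and 2 lower. The adaptor gene Irs1 rose (0.31, adjusted p = 0.00198), and Irs2, which encodes a related adaptor, fell (-0.40, adjusted p = 2.13e-05). Grb10, an imprinted inhibitor of the receptor, fell from 111 ± 4.14 to 87.0 ± 0.712 FPKM (-0.34, adjusted p = 0.000175). The insulin receptor gene Insr had -0.13 (adjusted p = 0.149).

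For D4 against MEF 17 of the 47 were higher and 12 lower (36.2% and 25.5%, against 34.2% and 27.6% of all), with a median of 0.04. Igf2 fell from 243 ± 5.06 to 112 ± 2.47 FPKM (-1.10, adjusted p = 4.05e-09). Both stanniocalcin genes rose, Stc1 from 6.003 ± 0.272 to 14.1 ± 1.48 FPKM (1.11, adjusted p = 6.77e-07) and Stc2 from 6.02 ± 0.517 to 13.8 ± 0.266 (1.08, adjusted p = 1.26e-08). Igfals, the partner of binding proteins in serum, rose to 1.05 ± 0.140 FPKM (1.03, adjusted p = 2.96e-08) from under its floor of 3 fragments, 0.0337 to 0.0420 FPKM, in every MEF library. Pik3cd, a PI3K subunit of leukocytes, fell from 4.07 ± 0.174 to 0.936 ± 0.121 FPKM (-1.39, adjusted p = 3.21e-09) beside the macrophage markers, whose part was not tested. In iPSC against MEF Pik3cd had -0.11 (adjusted p = 0.1), with 15 of the 16 markers lower and 1 higher. It was called higher in iPSC than in D4 (1.28, adjusted p = 1.62e-09), where 10 of the 16 markers were lower and 4 higher. Igf2bp1, an RNA-binding protein of Igf2 messages, fell (-0.36, adjusted p = 0.000443). Insr and Grb10 had 0.04 and 0.05 (adjusted p = 0.594 and 0.393), values that turned negative with median-ratio scaling and quantile normalization without a call.

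In iPSC against MEF 19 of the 47 were higher and 24 lower (40.4% and 51.1%, against 51% and 31.2% of all). Against D4 these were 17 and 23 (36.2% and 48.9%, against 48.5% and 33.9%), and the medians were -0.13 and -0.08. Gab1, a docking protein of receptor kinases, was at 60.6 ± 4.94 FPKM in iPSC and 5.83 ± 0.177 in MEF (3.17, adjusted p = 7.26e-13). Igf2bp1 was at 49.8 ± 1.75 and 7.27 ± 0.170 FPKM (2.62, adjusted p = 6.67e-12), and Eif4ebp1, a translation inhibitor under mTOR, at 163 ± 8.62 and 54.4 ± 5.16 (1.57, adjusted p = 6.43e-10). These 3 were also the most raised of the list against D4 (2.93, 2.98 and 1.34). Igf2 was at 40.3 ± 2.86 FPKM in iPSC (-2.56 against MEF, adjusted p = 9.75e-13), and Pappa, Grb10 and Insr were lower than in MEF (-1.53, -1.36 and -0.89, adjusted p = 3.72e-09, 7.71e-11 and 1.21e-07). The adaptor genes Grb14 and Irs1 were lower than in D4 (-1.87 and -1.79, adjusted p = 8.81e-12 and 5.82e-11). Of the 24 genes of PI3K, AKT, mTOR and FOXO, 10 were higher and 11 lower in iPSC than in MEF.

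The genes whose levels were most like those of each member were found by Pearson r over the 12 libraries on the log2 scale, among 9268 protein-coding genes with a mean of at least 5 FPKM in some group. These 12 libraries fall into 4 groups, so r mostly follows the group means. Boc and F3 were nearest to Igf1 (r = 0.995 and 0.993), Atl3 and Ptprm to Igf1r (0.993 and 0.990), and Flna and Mlxip to Igf2r (0.963 for both). Ahcy and Pim1 were nearest to Igfbp2 (0.993 and 0.988), Anxa6 and Adamts5 to Igfbp3 (0.9995 and 0.999), and Fam129b and Adipor1 to Igfbp4 (0.996 for both). For Igfbp6 these were Fam20c and Gm45837 (0.999 for both), and for Igfbp7 Adamts1 and Fcgrt (0.996 and 0.995). Igfbp5 was most like Tpm3-rs7 and Ifi202b (0.994 and 0.993).

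Of the 4 genes beside Igfbp4 and Igfbp6, 3 were tested and Spryd3 alone was called higher in D4 against MEF. Top2a and Soat2 were called lower. Of all genes tested, 34.2% were called higher and 27.6% lower in this comparison. Igfbp4 lies between Top2a, a topoisomerase of dividing cells, and Tns4. Top2a was lower in D4 than in MEF (-0.84, adjusted p = 4.1e-09), and Tns4, not tested, had means of 0.0558 FPKM in MEF and 0.132 in D4. Beside Igfbp6, Spryd3 rose by 0.38 on the log2 scale (adjusted p = 9.43e-06) and Soat2, whose start lies 1014 bases beyond it, fell by 0.54 (adjusted p = 0.000127). The gene before Igfbp2, Rpl37a, had 0.36 in D4 against MEF (adjusted p = 0.00231), and Tnp1, the gene after Igfbp5, was at a mean of at most 0.0632 FPKM in every group.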

How the data were processed

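The authors deposited FPKM values, in 1 table with a row per gene and a column per library. Per the labels' protocols, stranded libraries of polyadenylated RNA were sequenced as read pairs, and per the submitters' processing notes the build was mm10. Aligner, counter, annotation and use of strand were not given in the sources used here. Of 40384 gene IDs, 40225 matched GENCODE M21 (GRCm38). FPKM times exon length gave a step per library, of which 42.9 to 44.5% of low values were whole multiples (tolerance 0.01); the step gave depth and recovered fragments. No 2 columns were identical (0 of 66 pairs).

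The 17114 genes that reached 1 FPKM in 3 or more libraries were fitted as log2(FPKM + 1) with limma 3.58.1 in R 4.3.3, with 4 group means, a variance prior with a trend and Benjamini-Hochberg adjustment. Adding 1 shrinks the fold changes of low genes. Sums were compared with exact permutation tests in scipy 1.17.1. The fit was also run on simulated normal values with the same mean in every group, apart from a set of genes changed in D4_DUX. That setting is simpler than these data, and its result is not given here. Promoters are from RefSeq (GRCm38.p6) and matched all 9 genes.

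Alternatives were other pseudocounts, filters, scalings, priors and sample sets, voom, a replicate block and leaving out each library. Named were the 9 genes, Duxf3, Igf2, Insr, Grb10, the 3 called pathway genes with the largest change per direction and comparison, and the 2 genes most like each member. Irs2, Igf2r's overlapping Airn, Ifi202b, the neighbours and iPSC replicate 3 were looked at after values were seen. The genes and lists were chosen with earlier results of these data known. P-values cover the spread between libraries, which may be technical.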

Additional observations from a re-analysis of the deposited data

How the results depend on the processing

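Of 828 alternative values for the 9 genes (23 settings, 4 comparisons), 798 kept their direction and their side of the threshold, 11 lost a call, 11 gained one and 8 changed sign; those that changed sign were not called. They were Igfbp4 in the libraries labelled D4_DUX against D4 (-0.03 with median-ratio scaling; from -0.02 to 0.02 on leaving out 1 library), Igfbp6 in the same comparison (-0.08 to 0.01 on leaving out 1 library), Igf1r in D4 against MEF (-0.03 with median-ratio scaling and -0.02 with quantile normalization) and Igfbp5 in iPSC against MEF (-0.11 to 0.11 on leaving out 1 library). In D4 against MEF, Grb10 had -0.02 and -0.06 and Insr -0.02 and -0.01 with these 2 scalings. Members called higher in the libraries labelled D4_DUX ranged from 0 to 1 on leaving out 1 library, and Igfbp7 was not called lower there without a filter (adjusted p = 0.101) or with quantile normalization (0.0841). Pathway genes called lower in D4 against MEF became 19 with median-ratio scaling; the cause was not tested. With FPKM of at least 5, which tests fewer genes, all genes called lower in D4 against MEF were 3087, and those higher in iPSC 5570 against MEF and 5183 against D4; without a filter, which tests more, these last were 13594 and 13205. Median-ratio scaling moved the all-gene median of iPSC against MEF from 0.21 to 0.04. The replicate numbers did not pair the libraries (correlations of same-numbered deviations -0.146 to 0.0624; 2 of 12 libraries correlated best with their own number). With the replicate block, 1 member was higher and 2 were lower in the libraries labelled D4_DUX, since Igfbp7 had adjusted p = 0.0501, and 3182 genes were higher and 2495 lower in all. Depth did not limit the 9 genes, the lowest of which had 96 fragments.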

Other observations

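Some genes were present in both end states and absent at day 4, where Igfbp5 was low but present. This count was made after the values were seen. With FPKM of at least 5 in every MEF and iPSC library and below 0.1 in all 6 day 4 libraries there were 2 genes, Ifi202b (39.3 to 66.8 FPKM in MEF and iPSC, listed at 0 at day 4) and the long noncoding RNA gene Gm42047 (38.8 to 138 FPKM, against at most 0.0342). The reverse pattern had 10 genes. They include the keratin genes Krt13, Krt16 and Krt90, the desmosome gene Pkp1 and the epidermal gene Krtdap. The embryonic globin gene Hbb-y was at 26.7 to 43.0 FPKM at day 4 and listed at 0 in MEF and iPSC. Whether the day 4 cultures came from the same preparation of fibroblasts as the MEF libraries was left unsaid in the sources used here, and their origin cannot be told apart from the time point. Igfbp5 itself was above its floor in every library, with at least 350 fragments.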
